A study of Mus musculus with 10 samples.

Results

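The NMDA receptor subunits were followed across 10 libraries of ribosome-bound RNA from the mouse hippocampus. The family was defined by name as the 7 genes Grin1, Grin2a, Grin2b, Grin2c, Grin2d, Grin3a and Grin3b, each matched to its Ensembl identifier among the 54838 gene identifiers of the count files. All 7 were present in the files, and 6 passed the expression filter that left 16806 genes for testing (CPM, which is a count scaled to the size of its library, above 1 in 2 or more libraries). Grin3b did not pass.

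NMDA receptors are glutamate-gated channels that admit calcium when glutamate binding coincides with depolarization, which relieves a magnesium block of the pore. Every functional receptor carries the obligatory subunit encoded by Grin1, which binds glycine or D-serine. The Grin2 genes encode the glutamate-binding subunits that set gating speed and magnesium sensitivity, and the Grin3 genes encode glycine-binding subunits that lower calcium entry. Mossy cells are glutamatergic neurons of the dentate hilus that receive mossy fiber input from granule cells and project back to the dentate gyrus.

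The mice were C57BL/6 males, about 10 weeks old, with the genotype Drd2-Cre;Eef1a1LSL.eGFPL10a/+. Both groups carried the Drd2-Cre allele and the Cre-dependent EGFP-L10a allele, which tags ribosomes for precipitation (translating ribosome affinity purification, TRAP), and no group lacked them. The dorsal group (n = 5 libraries) came from the dorsal end of the hippocampus, cut by its length, and the ventral group (n = 5) from the longer remainder, and each library was a pool of tissue from 5 mice. Each hippocampus was divided into both parts, so the groups came from the same mice. Which dorsal and ventral pools shared mice is not given in the sources used here, and the tests treated the 10 libraries as independent. The study's histology placed the tag mainly in hilar mossy cells, and also in some GABAergic interneurons and in cells of the ventral subiculum. The ventral subiculum was trimmed by dissection, and the study allows that a little subicular tissue may have been left in. The libraries therefore represent a population enriched for mossy cells and not a pure one.

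Counts on genes ranged from 11138676 to 20594364 per library, at which 3 counts correspond to 0.146 to 0.269 CPM, a floor that covers counting error alone. Of 11 mossy cell markers, 9 were tested, Drd2 averaged 28.1 CPM (dorsal) and 20.7 CPM (ventral), and calretinin (Calb2), which marks ventral mossy cells, averaged 65.0 and 615 CPM. The mossy cell markers Csf2rb2 and Glipr1 stayed under the filter. Markers of GABAergic interneurons were present over a wide range. The highest was Gad2, at 2848 CPM (dorsal) and 3168 CPM (ventral), and the lowest Vip, at 3.61 and 4.27 CPM. Gad1 averaged 257 and 354 CPM, and Slc32a1 51.4 and 54.3 CPM. Read pairs outside annotated genes took 21.8 to 33.9% in dorsal and 11.6 to 19.3% in ventral libraries, without overlap. Dorsal replicate 1 stood apart in base composition: the 2922 tested protein-coding genes with over 55% GC lay at a median of -0.47 on the log2 scale from their mean over all libraries, against -0.08 to 0.19 in the other 9 libraries.

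The subunits share a short coding stretch. It was picked for its identical residues in all 7 members, so it does not measure how close the whole genes are in sequence. The longest run of identical residues encoded by all 7 members spans 7 codons in the conserved channel-lining part of the receptor, within a single exon of each gene. The stretches below were read from the GRCm38 genome in the direction of the gene, 5′ to 3′, and capitals mark bases that differ from Grin1.
Grin1 (chr2:25297202-25297222, minus strand, exon 15): tacactgccaacctggcagcc
Grin2a (chr16:9653450-9653470, minus strand, exon 10): tacacAgccaacctggcTgcc
Grin2b (chr6:135772247-135772267, minus strand, exon 10): tacactgccaacTtAgcCgcc
Grin2c (chr11:115253752-115253772, minus strand, exon 11): tacacGgccaaTctggcagcc
Grin2d (chr7:45854282-45854302, minus strand, exon 8): taTacAgccaaTctggcTgcc
Grin3a (chr4:49770473-49770493, minus strand, exon 3): tacacAgcGaacTtggcTgcT
Grin3b (chr10:79974639-79974659, plus strand, exon 3): tacacAgccaacctggcagcT
Even in this stretch each gene differed from Grin1 at 2 to 5 of 21 bases. The genes differ far more in the rest of the transcript. Grin2a and Grin2b carry 9929 and 18865 bases after the coding sequence in their longest transcripts, against 1187 for Grin1, and the longest transcripts of Grin2a and Grin2b hold 44.8 and 45.7% GC, against 59.4% for Grin1, 62.1% for Grin2c and 65.0% for Grin2d. Grin3a lies between them at 49.2%.

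The first comparison asked whether the messages of the subunits differ along the dorsoventral axis. Grin2a and Grin2b, the main glutamate-binding subunits of the adult forebrain, were 2.18-fold and 2.01-fold higher in dorsal than in ventral libraries, while Grin1 did not differ detectably. Grin3a was lower in dorsal libraries, and the sparse Grin2c was higher. Of the 6 tested members, 4 were called in either direction, against 25.5% of all tested genes: 3 were called dorsal-enriched (Grin2a, Grin2b and Grin2c), against 15.7% of all tested genes, and 1 was called ventral-enriched (Grin3a), against 9.85% of all tested genes. Among tested protein-coding genes, 12.8, 11.6 and 8.49% were dorsal-enriched at up to 47%, 47 to 55% and over 55% GC. The ventral-enriched shares in these bands were 7.73, 11.1 and 13.1%. Grin2c entered the test through the dorsal libraries. Without the expression filter, or with the older dispersion estimates of edgeR, 2 members were called dorsal-enriched. A call required an adjusted p below 0.05 (edgeR quasi-likelihood test, Benjamini-Hochberg) and group means that differed by over 0.58 in log2(CPM + 1), in either direction. The calls of Grin2c and Grin3a depended on the libraries or settings used, as given with each gene. In pooled tissue, fewer cells of a type and less RNA per cell cannot be told apart.

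**Figure D1:**
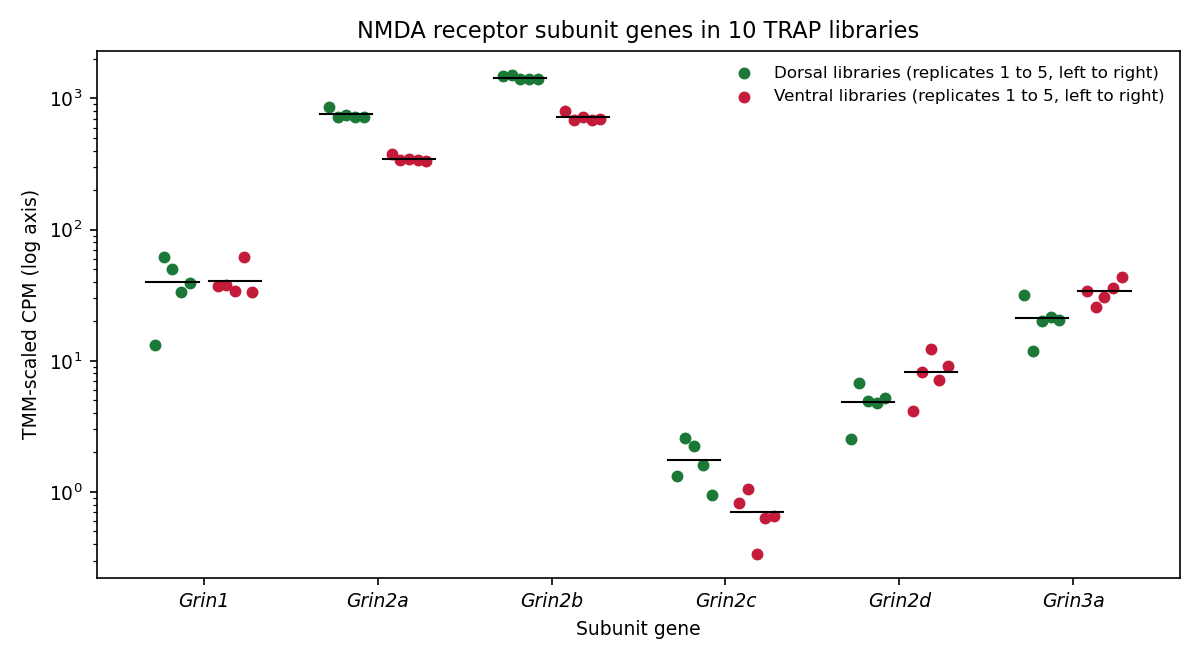
Normalized level of the 6 tested NMDA receptor subunit genes in each library (TMM-scaled CPM, log axis), with dorsal libraries in green, ventral libraries in red and the group mean as a black line. The dorsal and ventral points are fully separate for Grin2a and Grin2b and overlap for the other 4 genes.

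Grin1 (chr2:25291181-25319187, minus strand) showed no detected difference between the groups. Its level in dorsal replicates 1 to 5 was 13.2, 62.2, 50.1, 33.2 and 39.4 CPM, and in ventral replicates 1 to 5 it was 36.9, 38.0, 33.8, 62.3 and 33.6 CPM. The groups overlapped, with the lowest value in dorsal replicate 1 and equally high values in dorsal replicate 2 and ventral replicate 4. The dorsal mean was 39.6 ± 18.4 CPM and the ventral mean 40.9 ± 12.1 CPM (SD, n = 5 each). The log2 fold change, dorsal over ventral here and throughout, was -0.02 (SE 0.29, 95% interval -0.64 to 0.60, edgeR adjusted p = 0.964). The data are thus compatible with any difference within that interval. Its sign changed with the scaling and with the library left out: it was 0.18 without dorsal replicate 1, 0.05 without dorsal replicate 4 and 0.19 without ventral replicate 4. Of its exonic length, 13.5% is shared with the antisense gene Grin1os, whose counts ran from 0 to 23 in dorsal and from 0 to 3 in ventral libraries, and whose reads cannot be told apart from those of Grin1 without strand.

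Grin2a (chr16:9567898-9995560, minus strand), which encodes the subunit of fast-deactivating receptors that becomes prominent after early postnatal life, was higher in every dorsal library. Dorsal replicates 1 to 5 held 855, 727, 754, 721 and 725 CPM. Ventral replicates 1 to 5 held 375, 339, 343, 339 and 335 CPM. The lowest dorsal library was far above the highest ventral one. The means were 756 ± 56.6 and 346 ± 16.3 CPM (SD, n = 5 each), a log2 fold change of 1.13 (SE 0.08, 95% interval 0.95 to 1.30, edgeR adjusted p = 3.157e-06).

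Grin2b (chr6:135713233-136173511, minus strand), which encodes the subunit of slowly deactivating receptors that binds calcium/calmodulin-dependent kinase II, followed the same order. Its level in dorsal replicates 1 to 5 was 1494, 1518, 1405, 1404 and 1398 CPM. In ventral replicates 1 to 5 it was 797, 686, 720.3, 685 and 702 CPM. Here too the groups did not overlap, and ventral replicate 1 was the highest ventral library for both genes. The means were 1444 ± 57.4 and 718 ± 46.4 CPM (SD, n = 5 each), a log2 fold change of 1.01 (SE 0.08, 95% interval 0.84 to 1.17, edgeR adjusted p = 3.306e-06). Grin2a and Grin2b were thus 2 of 6 tested members whose dorsal libraries all lay above the ventral ones, which 9.81% of all tested genes also showed. No member had all ventral libraries above the dorsal ones, against 8.36% of all tested genes.

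Grin2c (chr11:115249169-115267243, minus strand) is known mainly from cerebellum and glia and was near the lower limit of these libraries. Its counts in dorsal replicates 1 to 5 were 14, 40, 33, 27 and 12, and in ventral replicates 1 to 5 they were 15, 12, 4, 10 and 14. The groups overlapped once scaled, since ventral replicate 2 exceeded dorsal replicate 5. The dorsal mean was 1.74 ± 0.67 CPM and the ventral mean 0.70 ± 0.26 CPM (SD, n = 5 each), a log2 fold change of 1.34 (SE 0.43, edgeR adjusted p = 0.0252). Grin2c exceeded 1 CPM in 4 dorsal libraries and in 1 ventral library. The filter asked for 2 libraries, so Grin2c passed it through the group in which it is higher, and the ventral libraries alone would not have passed it. The call was lost without dorsal replicate 2 (1.15, edgeR adjusted p = 0.0527), dorsal replicate 3 (1.25, adjusted p = 0.0554), ventral replicate 4 (1.31, adjusted p = 0.0599) or ventral replicate 5 (1.31, adjusted p = 0.0606), without the filter (1.34, adjusted p = 0.0585) and with the older dispersion estimates of edgeR (1.30, adjusted p = 0.0755).

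Grin2d (chr7:45831883-45878378, minus strand), whose product forms slow receptors and is known from GABAergic interneurons, had its lower mean in dorsal libraries. Dorsal replicates 1 to 5 held 2.54, 6.74, 4.97, 4.80 and 5.18 CPM, and ventral replicates 1 to 5 held 4.15, 8.26, 12.4, 7.14 and 9.05 CPM. Ventral replicate 1 lay among the dorsal libraries and the groups overlapped. The means were 4.84 ± 1.51 and 8.20 ± 2.99 CPM (SD, n = 5 each), with a log2 fold change of -0.68 (SE 0.31, 95% interval -1.35 to -0.02, edgeR adjusted p = 0.101), which did not pass the threshold. Without ventral replicate 1 it did (-0.87, adjusted p = 0.0296). Of its exonic length, 9.66% is shared with the antisense gene Gm45441.

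Grin3a (chr4:49661611-49845744, minus strand), which encodes a glycine-binding subunit that lowers calcium permeability, was the member called lower in dorsal libraries. Its level in dorsal replicates 1 to 5 was 31.7, 11.9, 20.3, 21.7 and 20.5 CPM. In ventral replicates 1 to 5 it was 33.9, 25.7, 30.8, 35.9 and 43.5 CPM. Dorsal replicate 1 reached into the ventral range, and the other 4 dorsal libraries lay under all ventral ones. The means were 21.2 ± 7.07 and 34.0 ± 6.58 CPM (SD, n = 5 each), a log2 fold change of -0.73 (SE 0.21, 95% interval -1.19 to -0.27, edgeR adjusted p = 0.0188). The call was lost without dorsal replicate 2, where the fold threshold was missed (-0.57, adjusted p = 0.0335), and without ventral replicate 5 (-0.61, adjusted p = 0.0628).

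Grin3b (chr10:79970715-79977190, plus strand), the other glycine-binding subunit gene of this class and one known mainly from spinal cord and brainstem motor neurons, gave a single count in ventral replicate 3 and 0 counts in the other 9 libraries. No fold change is given. Of its exonic length, 32.1% is shared with Tmem259 on the opposite strand.

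**Figure D2:**
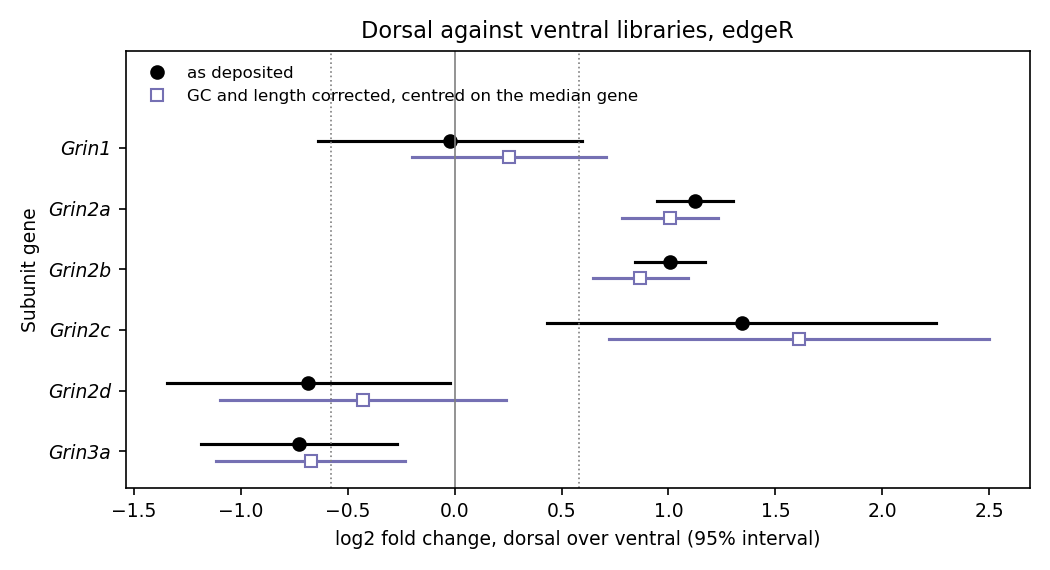
log2 fold change, dorsal over ventral, of the 6 tested subunit genes with 95% intervals from edgeR, as deposited (black circles) and after offsets for GC content and exonic length, centred on the median gene (open squares). Dotted lines mark 0.58 in either direction. Grin2a (1.13 and 1.01) and Grin2b (1.01 and 0.87) lie beyond the line under both, and the interval of Grin1 spans 0 under both.

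Since base composition differed between libraries and between the members, the comparison was repeated after a smooth trend of GC content and exonic length had been removed from each library. The correction moved the median log2 fold change of all tested genes from 0.00 to -0.17, so the corrected libraries were shifted to put the median gene at 0 and the genes were tested again. This centring was chosen after the data were seen. Corrected and centred, Grin2a was at 1.01 and Grin2b at 0.87, and both kept their calls (edgeR adjusted p = 4.984e-05 and 0.0001122). Grin3a was at -0.67 (edgeR adjusted p = 0.0238) and Grin2c at 1.61 (adjusted p = 0.00914), and both kept their calls as well. Grin1 was at 0.25 (adjusted p = 0.379) and Grin2d at -0.43 (adjusted p = 0.3101), and neither was called.

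The next question was how the family is made up within each group, which needs levels per length because a longer transcript yields more reads. Length was the only trait scaled. Grin1 (59.4% GC) also differs in base composition from Grin2a and Grin2b (44.8 and 45.7%), and 13.5% of its exonic length is shared with Grin1os. Neither was corrected between genes, so the order of different genes holds on this scale only. On this scale (CPM per kb of exonic length) the dorsal means were 58.1 ± 2.31 for Grin2b, 42.2 ± 3.15 for Grin2a, 4.09 ± 1.90 for Grin1, 1.73 ± 0.58 for Grin3a, 0.73 ± 0.23 for Grin2d and 0.35 ± 0.13 for Grin2c (SD, n = 5). The ventral means were 28.9 ± 1.87 for Grin2b, 19.3 ± 0.91 for Grin2a, 4.22 ± 1.25 for Grin1, 2.77 ± 0.54 for Grin3a, 1.23 ± 0.45 for Grin2d and 0.14 ± 0.05 for Grin2c (SD, n = 5). The order of the members was the same in both groups. Grin2b stood above Grin2a, and Grin2a above Grin1, without overlap between libraries in either group. Grin1 and Grin3a were neighbours whose libraries overlapped in both groups. Grin3a and Grin2d, and Grin2d and Grin2c, overlapped in dorsal libraries and were separate in ventral ones.

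**Figure D3:**
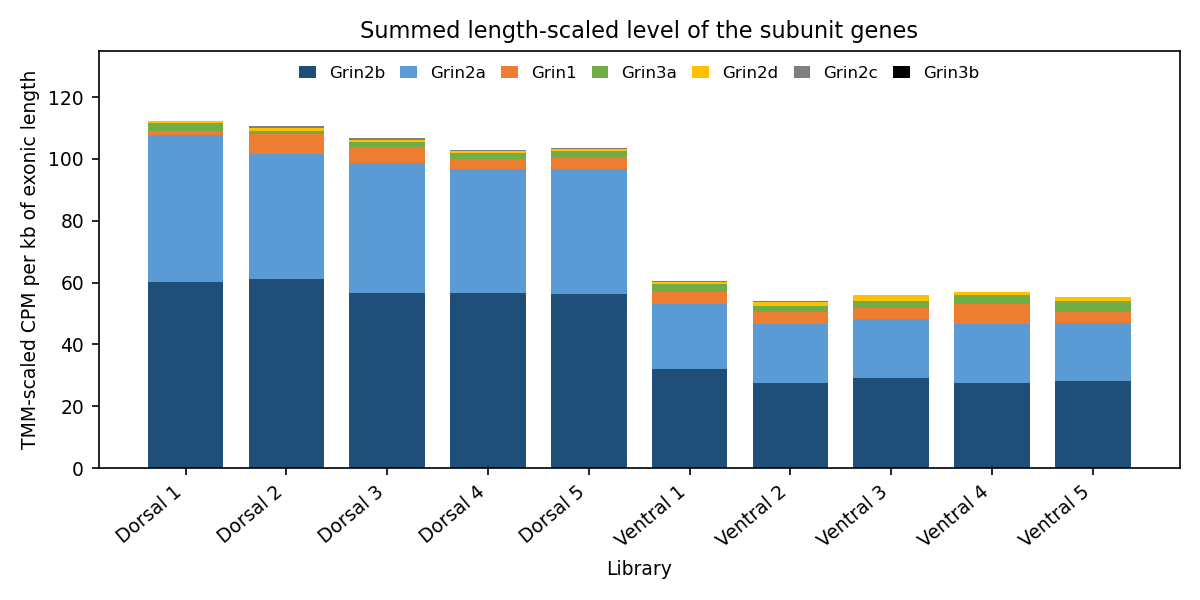
Summed level of the 7 subunit genes in each library, in TMM-scaled CPM per kb of exonic length, with each gene as a coloured part of the bar. The dorsal bars reach 103 to 112 and the ventral bars 54.0 to 60.4, and Grin2b and Grin2a make up most of every bar.

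Summed over the 7 genes, the length-scaled level averaged 107 ± 4.21 for dorsal and 56.6 ± 2.38 for ventral libraries (SD, n = 5 each), and the groups did not overlap. Grin2b made up 54.2 ± 0.93% of this sum in dorsal and 51.1 ± 1.74% in ventral libraries, and Grin2a 39.3 ± 2.05% and 34.1 ± 0.74%. The share of Grin1 was 3.82 ± 1.74% in dorsal and 7.46 ± 2.17% in ventral libraries. Grin3a took 1.61 ± 0.51% and 4.89 ± 0.95%, and Grin2d 0.68 ± 0.21% and 2.20 ± 0.83%. The shares are a description of message per length, without correction for base composition between genes. They also depend on the length used. Scaled by the longest transcript, Grin1 took 7.40% in dorsal and 13.8% in ventral libraries, and scaled by coding length 2.67% and 5.34%. Whichever length was used, Grin2b had the largest share and Grin2a the next in both groups.

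Ratios between members within a library remove the scaling of the library. The ratio of Grin2a to Grin1 counts was 64.6, 11.7, 15.04, 21.7 and 18.4 in dorsal replicates 1 to 5. In ventral replicates 1 to 5 it was 10.2, 8.94, 10.2, 5.44 and 9.99. Every dorsal library lay above every ventral one, and dorsal replicate 1 was far above the rest of its group. On the log2 scale the difference of the means was 1.30 (SE 0.46, n = 5 each, two-sided exact permutation p = 0.00794, the smallest that 5 against 5 libraries allow, adjusted over 5 ratios 0.0198). The ratio of Grin2b to Grin1 was 113, 24.4, 28.0, 42.3 and 35.5 in dorsal and 21.6, 18.1, 21.3, 10.99 and 20.9 in ventral replicates 1 to 5, again without overlap. Its log2 difference was 1.18 (SE 0.43, n = 5 each, two-sided exact permutation p = 0.00794, adjusted 0.0198).

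**Figure D4:**
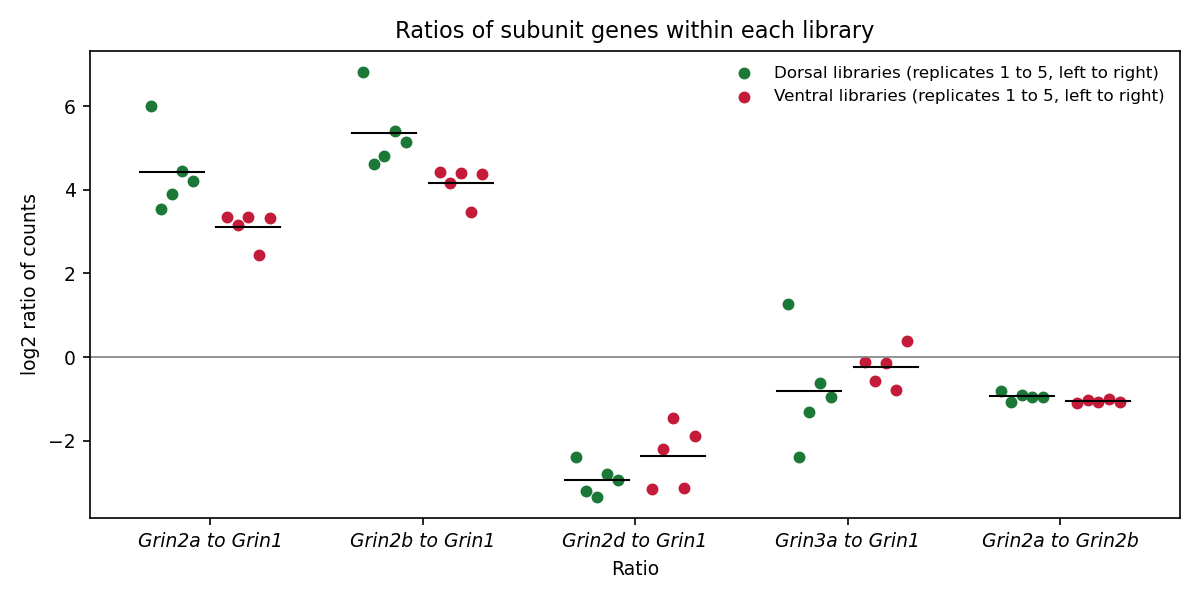
log2 ratio of counts between subunit genes in each library, with dorsal libraries in green, ventral libraries in red and the group mean as a black line. The ratios of Grin2a and of Grin2b to Grin1 are separate between the groups, and dorsal replicate 1 is the highest dorsal library for all 4 ratios to Grin1.

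Both ratios to Grin1 were largest in dorsal replicate 1, where Grin1 and the GC-rich genes were lowest, and smallest in ventral replicate 4, where both were highest (0.19 for the GC-rich genes). In dorsal replicate 2 Grin1 was nearly as high (62.2 CPM) with these genes at -0.01. In ventral replicate 5 it was low (33.6 CPM) with them at 0.13. Whether the Grin1 level followed that of the GC-rich genes across libraries was not tested. Without dorsal replicate 1 the log2 differences were 0.90 for Grin2a and 0.82 for Grin2b, both with an adjusted permutation p of 0.0198. Without ventral replicate 2 or ventral replicate 4 the adjusted exact permutation p was 0.0595 for both ratios, with differences of 1.31 and 1.13 for Grin2a and of 1.19 and 1.01 for Grin2b. After correction for GC content and length, which before centring raised Grin1 from 13.2 to 22.1 CPM in dorsal replicate 1 and lowered it from 62.3 to 50.4 CPM in ventral replicate 4, the differences were 0.85 and 0.72, each with an adjusted exact permutation p of 0.0529. Both ratios thus missed the adjusted p threshold under the correction and without either of these ventral libraries. Without ventral replicate 2 the differences did not shrink, and the unadjusted exact permutation p was 0.0159 and 0.0238. Without each dorsal library in turn, the unadjusted exact permutation p was 0.00794 for both ratios. The levels of Grin2a and Grin2b kept their calls, which came from a different test (edgeR).

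The ratio of Grin2a to Grin2b, which relates the fast to the slow type of subunit and joins genes of like GC content, differed little. Its dorsal mean was 0.524 ± 0.034 and its ventral mean 0.483 ± 0.011 (SD, n = 5 each), and the groups overlapped. The log2 difference was 0.11 (SE 0.04, two-sided exact permutation p = 0.0238, adjusted 0.0397, n = 5 each). It passed the threshold only when no library, dorsal replicate 1 or dorsal replicate 2 was left out, and without each of the other 8 libraries the adjusted exact permutation p was 0.0529 to 0.106. The ratio of Grin2d to Grin1 had a log2 difference of -0.57 (SE 0.38, exact permutation p = 0.183, adjusted 0.228) and that of Grin3a to Grin1 one of -0.55 (SE 0.63, exact permutation p = 0.429, adjusted 0.429). Without dorsal replicate 1 the latter was -1.07 (adjusted exact permutation p = 0.0397).

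To describe which genes shared the profile of a member, all 8757 tested genes with a mean above 10 CPM were ranked by the root-mean-square distance of their centred log2 levels over the 10 libraries. For Grin2a, the nearest genes were Cacna1e, which encodes a voltage-gated calcium channel (distance 0.083, log2 fold change 1.13), Grin2b itself (0.085) and Sema5a, which encodes a semaphorin (0.088, log2 fold change 1.14). For Grin2b, they were Gm2115 (0.084), Grin2a (0.085) and the long noncoding RNA gene C230004F18Rik (0.086). Grin2a and Grin2b were thus each the second nearest gene to the other. For Grin1, the nearest genes were Pik3r2, Epn1 and Ttyh3 at distances of 0.181, 0.189 and 0.22, and none of them was called. Their longest transcripts hold 61.4, 62.5 and 61.4% GC, against 59.4% for Grin1. For Grin3a, they were Ggact, Smim10l2a and Hectd3 at distances of 0.16, 0.178 and 0.192. Ggact, Smim10l2a and Hectd3 hold 43.3, 55.6 and 55.2% GC, against 49.2% for Grin3a. Cacna1e and Sema5a hold 48.3 and 45.9% GC, against 44.8% for Grin2a. Gm2115 and C230004F18Rik hold 48.0 and 34.4%, against 45.7% for Grin2b. These distances are descriptions over the same 10 libraries, which share depth and base composition.

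The genes that work with the receptor were then counted, from lists of 81 genes in all, of which 79 were tested. Of these, 15 were called dorsal-enriched (19% against 15.7% of all tested genes) and 8 ventral-enriched (10.1% against 9.85%). All tested genes include noncoding ones. Among tested protein-coding genes, 12.8, 11.6 and 8.49% were dorsal-enriched at up to 47%, 47 to 55% and over 55% GC. The ventral-enriched shares in these bands were 7.73, 11.1 and 13.1%. The median log2 fold change of the 79 genes was 0.13, against 0.00 for all tested genes. After the centred correction for GC content and length, 16 were called dorsal-enriched and 5 ventral-enriched, of which 9 and 3 had the same call before, while over all tested genes the calls went from 2636 dorsal and 1655 ventral to 2585 dorsal and 1782 ventral. Without the centring, under which the median gene sat at -0.17, the same correction called 7 genes of the lists dorsal-enriched and 13 ventral-enriched.

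**Figure D5:**
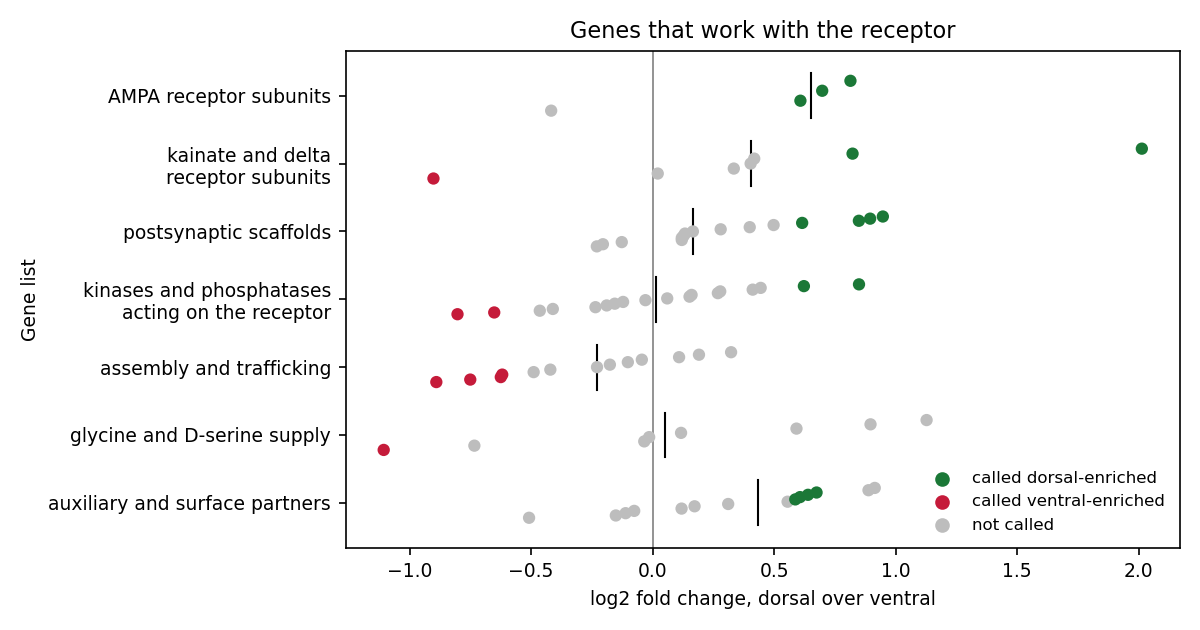
log2 fold change, dorsal over ventral, of 79 tested genes that work with NMDA receptors, 1 row of points per list, with called genes coloured and the list's median as a vertical line. Of the 4 AMPA receptor subunit genes 3 lie to the right of 0.58, and the called genes of the assembly and trafficking list all lie to the left of 0.

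Of the 4 AMPA receptor subunit genes, whose channels carry the fast glutamate current that opens NMDA receptors, 3 were dorsal-enriched and none ventral-enriched. That is 75% dorsal-enriched, against 15.7% of all tested genes, of which 9.85% were ventral-enriched. Gria2 had a dorsal mean of 1141 CPM and a ventral mean of 649 CPM (log2 fold change 0.81, edgeR adjusted p = 7.096e-05), Gria3 270.4 and 166 CPM (0.70, adjusted p = 0.0002462), and Gria1 932 and 612 CPM (0.61, adjusted p = 0.0002282). Gria4, known from interneurons, averaged 49.5 and 65.6 CPM and missed the fold threshold (-0.42, adjusted p = 0.0251). After the centred correction for GC content and length, Gria1 kept its call (0.65, edgeR adjusted p = 0.00165), while Gria2 (-0.05, adjusted p = 0.7604) and Gria3 (0.35, adjusted p = 0.0424) lost theirs, and Gria4 was still not called (-0.47, adjusted p = 0.0237). Among the kainate receptor genes, Grik2 was dorsal-enriched at 194 against 109 CPM (log2 fold change 0.82, edgeR adjusted p = 0.00268), and Grik1 was ventral-enriched at 14.4 against 27.4 CPM (-0.90, adjusted p = 0.0137). Under the centred correction Grik1 kept its call and Grik2 lost its call (0.18, edgeR adjusted p = 0.5099).

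Among 15 scaffold genes that anchor the receptor at the synapse, 4 were dorsal-enriched and none ventral-enriched. The dorsal-enriched share was 26.7%, against 15.7% of all tested genes, of which 9.85% were ventral-enriched. Shank1 had a dorsal mean of 1203 CPM and a ventral mean of 624 CPM (log2 fold change 0.95, edgeR adjusted p = 0.000349), Shank3 46.0 and 25.0 CPM (0.89, adjusted p = 0.00512) and Homer2 422 and 234 CPM (0.85, adjusted p = 0.0001174). The remaining call was Homer1, at 0.62. Dlg4, which encodes PSD-95 and binds the tails of the Grin2 subunits, was not called at 407 and 336 CPM (0.28, adjusted p = 0.0707), and is named here after its values were seen. Shank1, Shank3 and Homer2 kept their calls under the centred correction and Homer1 did not (-0.20, edgeR adjusted p = 0.314).

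Of 18 kinase and phosphatase genes acting on the receptor, 2 were called in each direction. Each direction held 11.1% of the list, against 15.7% (dorsal) and 9.85% (ventral) of all tested genes. Ptpn5, which encodes a phosphatase that removes the tyrosine phosphate keeping Grin2b subunits at the surface, averaged 122 and 67.9 CPM (log2 fold change 0.85, edgeR adjusted p = 0.00175), and the protein kinase C gene Prkca was also dorsal-enriched (0.62, adjusted p = 0.0005401). Csnk2b, a subunit of casein kinase 2, was ventral-enriched (-0.80, adjusted p = 0.0004876), as was Cdk5 (-0.65, adjusted p = 0.00281). Under the centred correction Ptpn5, Prkca and Csnk2b kept their calls, and Cdk5 missed the fold threshold (-0.56, edgeR adjusted p = 0.0190).

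In the assembly and trafficking list 30.8% were ventral-enriched, against 9.85% of all tested genes, of which 15.7% were dorsal-enriched. The 13 genes of the list gave 4 ventral-enriched and no dorsal-enriched calls, with a median log2 fold change of -0.23. They were Lin7b, an adaptor of receptor transport (log2 fold change -0.89, edgeR adjusted p = 0.0357), Ap2s1 and Ap2a1, subunits of the clathrin adaptor of endocytosis (-0.75 and -0.62, adjusted p = 0.00762 and 0.0303), and Nsf, the membrane fusion ATPase (-0.62, adjusted p = 0.0003366). None of the 4 kept its call under the centred correction: Ap2s1 and Nsf missed the fold threshold (-0.55 each, edgeR adjusted p = 0.0242 and 0.00348), and Lin7b and Ap2a1 missed the p threshold (-0.69 and -0.37, adjusted p = 0.0755 and 0.0968). Of 10 genes of glycine and D-serine supply, which provide the coagonist, 8 were tested and 1 was called: Slc1a4, a neutral amino acid transporter that carries serine, was ventral-enriched at 10.7 against 23.4 CPM (-1.11, adjusted p = 0.00348), also under the centred correction (-0.98, adjusted p = 0.00439). This 1 call is 12.5% of the tested genes of the list, against 9.85% of all tested genes.

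Of 14 genes of auxiliary and surface partners, 4 were dorsal-enriched and none ventral-enriched. The dorsal-enriched share was 28.6%, against 15.7% of all tested genes, of which 9.85% were ventral-enriched. Nptx1, a secreted pentraxin that clusters glutamate receptors, averaged 269 and 169 CPM (log2 fold change 0.67, edgeR adjusted p = 0.0002706). The reelin receptor gene Vldlr (0.64, adjusted p = 0.00638) and Nlgn1, which encodes a postsynaptic adhesion protein (0.61, adjusted p = 0.00144), followed, and the remaining call was the reelin receptor gene Lrp8 at 0.59. Nptx1 and Lrp8 kept their calls under the centred correction (0.92 and 0.60, edgeR adjusted p = 0.00114 and 0.0264), Vldlr missed the fold threshold (0.57, adjusted p = 0.00934), and Nlgn1 was at 0.10 (adjusted p = 0.532). Reln, in this list and among the interneuron markers, was not called.

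Markers of other cell types were compared in the same way. Over all tested genes, 15.7% were dorsal-enriched and 9.85% ventral-enriched. Of 12 interneuron markers, none was dorsal-enriched and 4 were ventral-enriched (Lhx6, Sst, Pvalb and Htr3a), all 12 had a negative log2 fold change, and their summed level was 3831 to 4832 CPM in dorsal and 4736 to 6092 CPM in ventral libraries, with overlap. Of 8 oligodendrocyte markers, 3 were dorsal-enriched and none ventral-enriched, and their summed level was 2227 to 2588 CPM in dorsal and 806 to 1480 CPM in ventral libraries, without overlap. Of 7 granule cell markers, 2 were dorsal-enriched and 1 ventral-enriched, with sums of 875 to 980.4 CPM and 667 to 971 CPM. Of 10 markers of pyramidal and subicular cells, 2 were called in each direction, with sums of 499 to 581 CPM and 486 to 632 CPM. Among 9 tested mossy cell markers, 3 were dorsal-enriched, of which Gria2 and Gria3 also stand among the AMPA receptor genes, and 2 were ventral-enriched, with sums of 1998 to 2179 CPM and 1994 to 2288 CPM. Of 7 astrocyte markers, 3 were dorsal-enriched and 1 ventral-enriched, with sums of 315 to 390.4 CPM and 258 to 428 CPM. Among 6 microglial markers 1 was dorsal-enriched, with sums of 21.9 to 23.7 CPM and 12.9 to 33.6 CPM. Of 7 tested markers of striatal medium spiny neurons 1 was dorsal-enriched, with sums of 134 to 197 CPM and 144 to 167 CPM, and of 7 endothelial and mural markers none was called, with sums of 96.8 to 159.6 CPM and 108 to 144 CPM. No list was at 0, and the part of these cell types in the differences of Grin2a, Grin2b, Grin2c, Grin2d and Grin3a was not tested.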

How the data were processed

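The authors amplified TRAP RNA (Ovation), made TruSeq libraries, sequenced paired ends, aligned them to GRCm38 with STAR 2.5.2b and counted reads per Ensembl gene with HTSeq 0.7.2. These whole-number counts were deposited without normalization. The annotation release and the strand setting of the counting are not given in the sources used here. From these counts, CPM and tests were computed with edgeR 4.0.16 in R 4.3.3: a filter of CPM above 1 in 2 or more libraries, TMM scaling, quasi-likelihood test, Benjamini-Hochberg adjustment over 16806 genes. GENCODE positions, lengths and GC content matched 54809 of 54838 identifiers. Per-length levels used the exonic length, and ratios used counts.

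The members and all gene lists were chosen with earlier results of these data known. Genes outside the families were named by rank: up to 3 called genes per direction and list by absolute log2 fold change, all AMPA receptor genes, and the 3 nearest profiles. Any further called gene of a list is named to complete its count, and 1 called gene of the lists is not reported here. The dispersion estimates of edgeR 4 were taken over those of edgeR 3 after both results had been seen. They change the call of Grin2c.

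The alternatives were other scalings and filters, DESeq2 1.42.0, the likelihood-ratio test, the fold threshold applied to edgeR's estimate, a replicate block, offsets for GC content and length (mgcv 1.9.3), the same centred on the median gene (added after the data were seen), protein-coding genes alone and each library left out. The tests were checked on simulated data, where a first bar on recovery was not met and was replaced, after its value was seen, by bars on recovery, bias and false calls. The 20 within-group pairs of libraries had a chi-square per degree of freedom of 4.36 to 45.1 over genes, so none was a duplicate, and all 10 libraries were used.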

Additional observations from a re-analysis of the deposited data

Results flagged for a closer look

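Single libraries stood apart from the other 4 of their group, by Dixon's criterion, in 7 of the 22 groups of 5 values examined, where chance flags about 1 in 20. Dorsal replicate 1 had the highest ratio to Grin1 in its group for Grin2a (64.6), Grin2b (113) and Grin3a (2.40). These 3 ratios share the low Grin1 level of that library, so they are not separate observations. Dorsal replicate 1 also had the highest dorsal level of Grin2a, at 855 CPM. Ventral replicate 4 had the highest ventral level of Grin1 (62.3 CPM) and the lowest ventral ratio of Grin2a to Grin1 (5.44). Ventral replicate 1 had the highest ventral level of Grin2a, at 375 CPM. Beside these values, protein-coding genes with over 55% GC lay at -0.47 (median log2 deviation) in dorsal replicate 1, at 0.19 in ventral replicate 4 and at 0.01 in ventral replicate 1.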

How the results depend on the processing

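Grin2a and Grin2b kept their dorsal calls under all 14 alternatives (log2 fold change 0.84 to 1.17 and 0.70 to 1.05, highest adjusted p 0.0005271 and 0.00106) and without each library in turn (1.08 to 1.15 and 0.99 to 1.05), and Grin3a kept its ventral call under all 14 (-0.84 to -0.65) but not without dorsal replicate 2 or ventral replicate 5 (range over the libraries left out -0.89 to -0.57). Grin2c lost its call without the expression filter (1.34) and with the dispersions of edgeR 3 (1.30), with 1.15 to 1.5 over the libraries left out, and Grin2d ranged from -0.87 to -0.52 over them. Grin1 turned positive, uncalled, with DESeq2-type size factors (0.0052), upper-quartile factors (0.0162), a stricter filter (0.0001), protein-coding genes alone (0.0084) and the GC and length correction (0.0861, or 0.2539 centred on the median gene), with -0.24 to 0.19 over the libraries left out. Leaving out libraries gave 0 to 2 ventral-enriched members. The GC and length correction put the median gene at -0.17, not 0, and with that shift it called 7 genes of the receptor lists dorsal-enriched, 13 ventral-enriched and 2895 ventral-enriched genes in all. Centred on the median gene, a choice made after the data were seen, it called 16 and 5 genes of the lists and 1782 ventral-enriched genes in all, and protein-coding genes alone gave 1665 dorsal-enriched genes.

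The replicate numbers gave no sign of pairing the libraries: dorsal and ventral libraries of the same number had correlated deviations of -0.03 to 0.07, and 3 of 10 libraries correlated best with their own number. These correlations cannot decide whether same-numbered pools shared mice, which is not given. With the replicate block, Grin2d was called ventral-enriched (-0.75, edgeR adjusted p = 0.0418), which made 2 ventral-enriched members, and counts over all genes were 2656 dorsal and 1672 ventral. With the replicate block and the GC and length correction, Grin2d was not called (-0.67, adjusted p = 0.1107), Grin1 was 0.0241, and, without centring, the lists gave 8 and 13 calls and all genes gave 2978 ventral-enriched. For the ratios, an exact sign-flip test within same-numbered pairs cannot go below 0.0625, so the differences for Grin2a to Grin1 (1.30), Grin2b to Grin1 (1.18) and Grin2a to Grin2b (0.11) could not pass.

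The GC and length correction left ratio differences of 0.85, 0.72 and 0.14 in the same order, with an adjusted exact permutation p of 0.0529 each. Over the libraries left out they ranged from 0.90 to 1.52, from 0.82 to 1.37 and from 0.0824 to 0.15, and that of Grin3a to Grin1 from -1.07 to -0.15. By the longest transcript, the share of Grin1 was 7.40% (dorsal) and 13.8% (ventral) and that of Grin2b 48.0% and 43.1%. By coding length, the share of Grin2a was 33.2% and 29.6% and that of Grin2b 62.6% and 60.5%. Depth limits Grin2c, at 4 to 40 counts per library, and Grin3b.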
